A study of Homo sapiens with 6 samples.

Results

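YAP1, WWTR1 (the gene of TAZ), TEAD1, TEAD2, TEAD3, TEAD4, VGLL1, VGLL3 and VGLL4 form the transcriptional end of the Hippo pathway. They were chosen by symbol for their place in the pathway, with earlier results of these data known, and are 9 of the 28395 genes listed. Their RNA was measured in HCC827, an established human lung adenocarcinoma line whose EGFR carries an activating mutation. The cells had been given the vehicle DMSO (3 libraries) or 1 μM erlotinib, an inhibitor of the EGFR kinase (3 libraries), for 24 h. No other agent or genetic change separated the groups, and 1 cell line cannot stand for other EGFR-mutant tumors. The sample descriptions do not say whether the libraries of a group came from separate cultures. The study's methods speak of independent repeats of its experiments in general but not of these libraries, so the p-values measure the spread between these libraries, which may be technical. The DMSO libraries are numbered 1 to 3 and the erlotinib libraries 4 to 6, and values are given in that order.

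In this pathway the kinases STK3 and STK4 activate LATS1 and LATS2, which phosphorylate YAP and TAZ and so hold them in the cytoplasm. YAP and TAZ do not bind DNA themselves. In the nucleus they dock on the TEAD factors, which bind DNA and carry the co-activators to growth and adhesion genes, while vestigial-like (VGLL) proteins dock on the same factors without YAP or TAZ. The comparison asks which of these genes changed in transcript level when the EGFR kinase was blocked. RNA levels say nothing of phosphorylation or of where a protein lies in the cell.

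After 24 h of erlotinib, both co-activator genes were slightly lower, and the TEAD genes moved in opposite directions. TEAD1 and TEAD4 were lower, while TEAD2 was 3.76-fold and TEAD3 1.51-fold higher. VGLL4, whose product competes with YAP for TEAD factors, was 1.30-fold higher. VGLL1 had no reads with DMSO and 15 reads with erlotinib. Of the 9 genes, 8 had a mean signal of at least 10 (reads divided by 1 size factor per library) and were tested. With limma on log2(signal + 1) and a Benjamini-Hochberg adjusted p under 0.05 over 14215 genes, 4 were lower, 3 were higher and VGLL3 was neither. Scaled to the library totals, 2 were lower, since YAP1 and TEAD1 lost the call, and the same 3 were higher. Erlotinib changed most of the transcriptome: 35.4% of all tested genes were lower and 35.3% higher, 70.7% together, so a call alone does not set these genes apart. With each library scaled to its total in place of the size factor, 3955 genes were lower and 6156 higher, and 60.9% of the calls were higher in place of 49.9%. The groups did not overlap for 8 of 8 tested members, against 73.6% of all tested genes (36.9% with erlotinib lower and 36.7% with erlotinib higher). Both counts rest on the size factors and were not repeated with the library totals, where the log2 fold change of YAP1 was 0.00. The median log2 fold change of the tested members was -0.21, and that of all tested genes was 0.02.

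**Figure D1:**
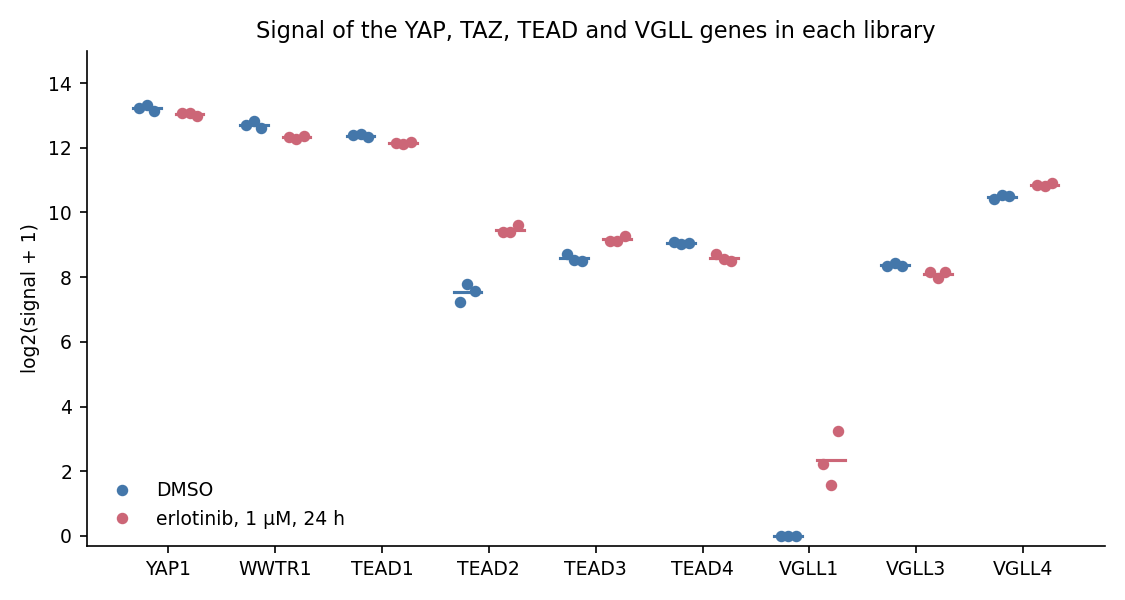
Log2(signal + 1) of the 9 genes in each of the 6 libraries, with points for libraries and bars for group means (n = 3 per group). The erlotinib points of TEAD2 (signal 668 to 775) lie far above its DMSO points (151 to 221), whereas those of YAP1 (8143 to 8689) lie just below its DMSO points (9031 to 10204).

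The promoters are shown for the co-activator gene with the highest level, for the tested member that rose most and for the member without reads in DMSO. Entries of 300 bases (250 before to 50 after a start) came from RefSeq on GRCh38.p14, and 13 entries matched 7 of the 9 members. TEAD1 and TEAD4 were not matched. They were searched on both strands for the TEAD core GGAATG (reverse CATTCC), which 14.0% of all 35116 promoters hold, for the AP-1 site TGANTCA, held by 7.71%, and for the FOXO site GTAAACA (reverse TGTTTAC), held by 3.42%. The searched motifs do not overlap each other where they were found. The 250 bases before the YAP1 start (chr11:102110197-102110446, plus strand), 200 bases upstream of TEAD2 (chr19:49362467-49362666, minus strand) and 56 bases upstream of VGLL1 (chrX:136532033-136532088, plus strand) read 5′ to 3′, with the TEAD core in capitals:
YAP1: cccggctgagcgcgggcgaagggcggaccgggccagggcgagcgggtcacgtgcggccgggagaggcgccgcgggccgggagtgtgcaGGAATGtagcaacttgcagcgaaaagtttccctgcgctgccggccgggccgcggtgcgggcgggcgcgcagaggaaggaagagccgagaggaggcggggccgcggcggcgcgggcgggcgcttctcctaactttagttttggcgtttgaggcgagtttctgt
TEAD2: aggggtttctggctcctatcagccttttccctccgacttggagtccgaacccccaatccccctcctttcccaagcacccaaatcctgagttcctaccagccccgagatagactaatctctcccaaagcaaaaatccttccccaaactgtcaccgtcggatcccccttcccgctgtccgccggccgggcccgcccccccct
VGLL1: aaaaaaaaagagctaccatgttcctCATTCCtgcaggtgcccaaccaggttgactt
The TEAD core was found in 2 of the 13 member entries, 162 bases before the YAP1 start (chr11:102110285-102110290) and, as CATTCC, 157 bases before the VGLL1 start (chrX:136532058-136532063). The AP-1 letters were in 0 of 13 entries and the FOXO letters in 1, 53 bases before an alternative WWTR1 start. None of these letters occur in the TEAD2 entry. These are matches of letters only, and no binding was measured.

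YAP1 (Entrez 10413, chromosome 11, 102110447-102233424, plus strand) had a signal of 9590, 10204 and 9031 with DMSO and of 8689, 8659 and 8143 with erlotinib. The groups did not overlap, but the highest erlotinib and the lowest DMSO library lay close together. The mean fell from 9609 ± 587 to 8497 ± 307 (SD, n = 3 each), a decrease of 11.6%. In limma its log2 fold change was -0.18 (95% interval -0.31 to -0.04, Benjamini-Hochberg adjusted p = 0.0202). This is a small change for these data, since 83.2% of all tested genes changed by at least as much in either direction. Without erlotinib library 6 it was -0.15 with an adjusted p of 0.106 in limma, and scaled to the total it was 0.00 (adjusted p = 0.963). The call on YAP1 thus depended on the scaling.

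WWTR1 (Entrez 25937, chromosome 3, 149517235-149724788, minus strand), which encodes the paralogous co-activator TAZ, had a signal of 6673, 7241 and 6323 with DMSO and of 5107, 4988 and 5260 with erlotinib. Every erlotinib library was below every DMSO library, by a margin larger than the spread within either group. The mean fell from 6746 ± 463 to 5118 ± 136, a decrease of 24.1%, with a log2 fold change of -0.40 (95% interval -0.53 to -0.26, limma adjusted p = 2.0e-05). A change of at least this size in either direction was seen for 64.9% of the tested genes. It kept its call in 16 of 16 alternative analyses, between -0.44 and -0.22. The WWTR1 locus also holds the opposite-strand RNA WWTR1-AS1, with a mean signal of 15.4 with DMSO and 13.4 with erlotinib.

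The co-activator genes were also compared with each other. Within a library, a ratio in which the scaling cancels, YAP1 stood to WWTR1 as 1.44, 1.41 and 1.43 with DMSO and as 1.70, 1.74 and 1.55 with erlotinib. Each erlotinib ratio was above each DMSO ratio. The log2 ratio rose from 0.51 ± 0.01 to 0.73 ± 0.09, a difference of 0.22, with p = 0.1 in a two-sided exact permutation test, the smallest p that 3 against 3 libraries allow, so this test could not pass a threshold of 0.05.

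**Figure D2:**
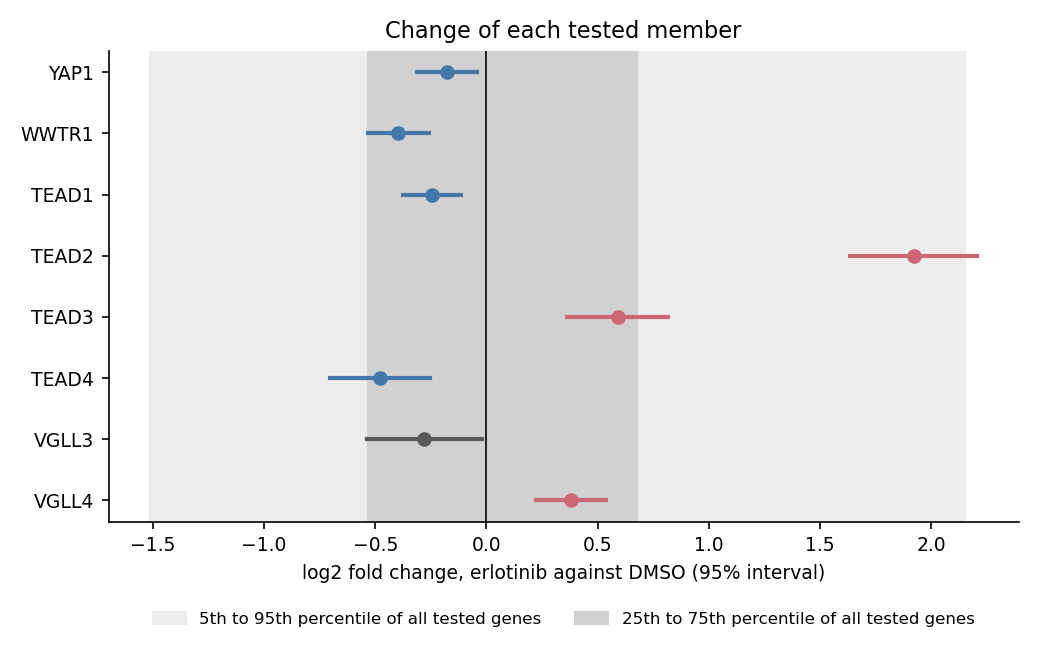
Log2 fold change, erlotinib against DMSO, of the 8 tested members from limma (points) with 95% intervals (lines) over bands for the 5th to 95th and the 25th to 75th percentile of all tested genes. YAP1, WWTR1, TEAD1, TEAD3, TEAD4, VGLL3 and VGLL4 lie within the middle band that runs from -0.53 to 0.68, and TEAD2 at 1.92 lies near its outer edge at 2.15.

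TEAD1 (Entrez 7003, chromosome 11, 12674421-12944737, plus strand), the TEAD gene with the highest level here, had a signal of 5359, 5464 and 5161 with DMSO and of 4496, 4397 and 4604 with erlotinib. The groups were well apart for a change of this size. Its mean fell from 5328 ± 154 to 4499 ± 103, a decrease of 15.6%, with a log2 fold change of -0.24 (95% interval -0.37 to -0.11, limma adjusted p = 0.0017). Scaled to the total, the value was -0.06 with an adjusted p of 0.359 in limma. Within a library, TEAD1 stood to YAP1 as 0.56, 0.54 and 0.57 with DMSO and as 0.52, 0.51 and 0.57 with erlotinib. These ratios overlapped, so a difference between the falls of both genes was not detectable here.

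TEAD2 (Entrez 8463, chromosome 19, 49340595-49362416, minus strand) had a signal of 151, 221 and 191 with DMSO and of 668, 674 and 775 with erlotinib. The groups were far apart, and the DMSO libraries varied more in proportion to their mean than the erlotinib libraries. The mean rose from 187 ± 35.2 to 706 ± 60.1, a log2 fold change of 1.92 (95% interval 1.64 to 2.21, limma adjusted p = 8.0e-11). It was the 1 tested member that changed by at least 1 log2 unit, as 17.0% of all tested genes did upward and 10.8% downward. A rise at least as large was seen for 6.47% of the tested genes. The rise kept its call in 16 of 16 alternative analyses, between 1.77 and 2.10.

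Some genes that overlap TEAD2 or lie beside it were also higher with erlotinib. CD37, a tetraspanin known from leukocytes, lies on the opposite strand and ends where TEAD2 ends. The reads were counted with a strand setting that is not given in the sources used here, so the counts do not show which strand gave them. The exons of both genes share 319 bases in GENCODE release 44, and 227 of 2126 stretches of 50 bases (10.7%) in the TEAD2 transcript also occur in a transcript of another gene. CD37 had a signal of 108, 114 and 78.1 with DMSO and of 395, 394 and 432 with erlotinib, a log2 fold change of 2.03 (limma adjusted p = 4.7e-10). The leukocyte genes PTPRC, CD3E and LYZ stayed at a mean signal of at most 4.75 in either group, while CD68, also made by other cells, went from 2898 to 3394. SLC6A16, a transporter gene that lies 265 bases from TEAD2, rose from 35.0 to 207 (log2 fold change 2.65, limma adjusted p = 6.3e-08). DKKL1, which overlaps the other end of TEAD2 and was too low to be tested, had a signal of 1.13, 0 and 2.14 with DMSO and of 14.8, 12.9 and 7.49 with erlotinib, without overlap. Within 100 kb of TEAD2, 4 other genes were tested: CD37 and SLC6A16 were higher, and of those farther away PIH1D1 was lower (-0.55) and ALDH16A1 was neither (0.01), both named after their values were seen. How many of the TEAD2 reads came from its neighbors was not tested.

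TEAD3 (Entrez 7005, chromosome 6, 35473597-35497079, minus strand) had a signal of 419, 368 and 365 with DMSO and of 556, 557 and 620 with erlotinib. The groups were separated by more than the spread within either. Its mean rose from 384 ± 30.2 to 578 ± 36.2, with a log2 fold change of 0.59 (95% interval 0.36 to 0.82, limma adjusted p = 6.1e-05). TEAD4 (Entrez 7004, chromosome 12, 2959397-3040676, plus strand) had a signal of 539, 522 and 535 with DMSO and of 415, 373 and 358 with erlotinib. It moved the other way, and its groups did not overlap. Its mean fell from 532 ± 8.90 to 382 ± 29.8, a decrease of 28.2%, with a log2 fold change of -0.48 (95% interval -0.70 to -0.25, limma adjusted p = 5.0e-04). TEAD3 and TEAD4 kept their calls in 16 of 16 alternative analyses, and their transcripts shared 7 stretches of 50 bases with each other.

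The make-up of the TEAD family shifted accordingly. Levels were compared between genes as signal per kilobase of merged exons. TEAD1 gave 54.1% ± 0.552 of the summed TEAD level with DMSO and 41.4% ± 0.438 with erlotinib (SD, n = 3 each). TEAD2 gave 5.47%, 7.93% and 7.09% in the DMSO libraries and 22.2%, 23.0% and 24.8% in the erlotinib libraries. It thus went from the smallest share of the 4 genes to the second place after TEAD1. TEAD3 went from 13.7% ± 1.02 to 18.7% ± 0.636, and TEAD4 from 25.4% ± 0.797 to 16.6% ± 1.56. The groups did not overlap for any of the shares, and since shares add up to 1 whole, a larger one forces others down. With erlotinib, TEAD3 and TEAD4 overlapped, and which of them came out higher depended on the transcript length used.

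**Figure D3:**
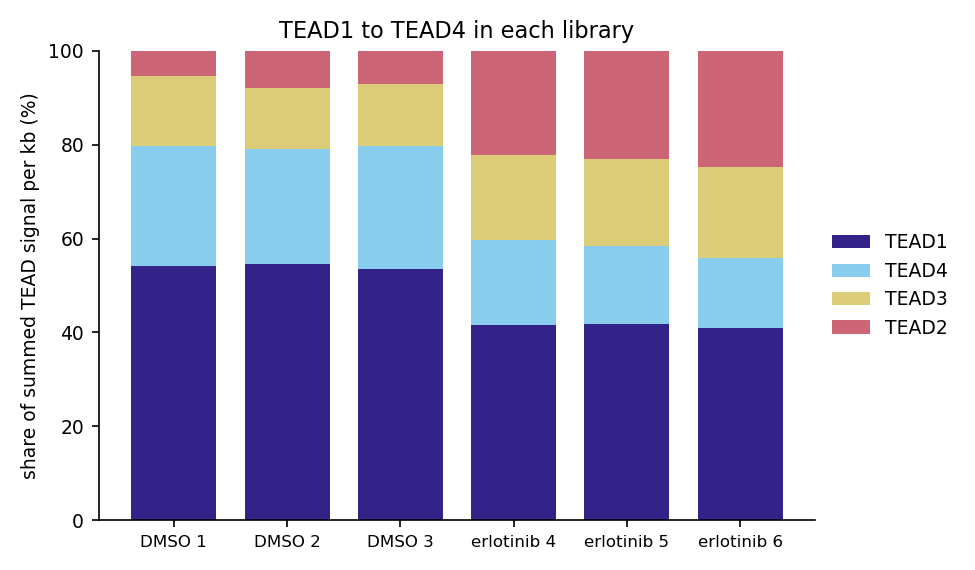
Share of TEAD1, TEAD2, TEAD3 and TEAD4 in the summed TEAD signal per kilobase in each of the 6 libraries (stacked bars, percent). TEAD1 shrinks from about 54.1% with DMSO to 41.4% with erlotinib, and TEAD2 widens from 6.83% to 23.3%.

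Summed over the family, the TEAD level was a little higher with erlotinib. It was 926, 935 and 901 signal per kilobase with DMSO and 1009, 984 and 1051 with erlotinib, without overlap (921 ± 17.4 and 1015 ± 33.7). The summed level of YAP1 and WWTR1 was 2318, 2484 and 2188 with DMSO and 1988, 1969 and 1920 with erlotinib, also without overlap. Both sums rest on the size factors and were not repeated with the library totals. Scaled to the totals, the log2 fold change of YAP1 was 0.00 and that of WWTR1 -0.22, so the separation of the co-activator sums may depend on the scaling. The co-activator transcripts stood to the TEAD transcripts as 2.53 ± 0.116 with DMSO and as 1.93 ± 0.0927 with erlotinib. The scaling cancels in this ratio, but the length used does not. With the longest transcript the ratio was 2.88 with DMSO and 2.19 with erlotinib, and with the MANE Select transcript 2.86 and 2.13. This ratio is of RNA per length, not of protein.

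Among the vestigial-like genes, VGLL4 (Entrez 9686, chromosome 3, 11556067-11721815, minus strand) was by far the most abundant. Its signal was 1365, 1491 and 1445 with DMSO and 1828, 1823 and 1943 with erlotinib. All erlotinib libraries were above all DMSO libraries. The mean rose from 1434 ± 64.1 to 1865 ± 68.2, with a log2 fold change of 0.38 (95% interval 0.22 to 0.54, limma adjusted p = 1.4e-04), and the call held in 16 of 16 alternative analyses. The exons of VGLL4 overlap ATG7, an autophagy gene on the opposite strand, and 41.5% of the 50-base stretches of the VGLL4 transcript also occur in a transcript of another gene. ATG7 moved the opposite way, from 605, 503 and 458 with DMSO to 321, 374 and 338 with erlotinib (log2 fold change -0.59, limma adjusted p = 2.1e-04). Within a library, VGLL4 stood to YAP1 as 0.14, 0.15 and 0.16 with DMSO and as 0.21, 0.21 and 0.24 with erlotinib. Against TEAD1 the ratio rose by 0.62 on the log2 scale, and for both ratios the groups did not overlap.

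VGLL3 (Entrez 389136, chromosome 3, 86937973-86991149, minus strand), a TEAD-binding cofactor, had a signal of 323, 349 and 321 with DMSO and of 282, 251 and 286 with erlotinib. The groups did not overlap, yet the log2 fold change of -0.28 (95% interval -0.54 to -0.02) did not pass the threshold, with a limma adjusted p of 0.052. VGLL1 (Entrez 51442, chromosome X, 136532215-136556799, plus strand), another TEAD-binding cofactor, had 0, 0 and 0 reads with DMSO and 4, 2 and 9 with erlotinib. Reads were thus seen in each erlotinib library and in no DMSO library. With 3 reads over the DMSO group taken as the limit that a count of 0 allows, its mean erlotinib signal was 4.53 times that limit. Without library 6, which held 9 of the 15 reads, it was 2.73 times the limit. These values leave out the sampling error of the erlotinib reads and take reads as independent, so they are not lower bounds of the change. With no filter on low values, limma gave VGLL1 an adjusted p of 0.0040. It entered that test through its erlotinib reads alone, so this p is no support for a rise. VGLL1 is not counted among the higher members. Low counts were even more often than odd (58.1% to 61.1% of values from 1 to 20 reads were even in a library), and whether both ends of a fragment were counted, which would make 15 reads fewer fragments, was not tested. VGLL2, the remaining family member, was listed at 0 in all 6 libraries.

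In order of signal per kilobase of merged exons, the DMSO libraries had YAP1 (1523 ± 93.0), WWTR1 (808 ± 55.4), TEAD1 (498 ± 14.4), TEAD4 (234 ± 3.91), VGLL4 (199 ± 8.91), TEAD3 (126 ± 9.90), TEAD2 (62.9 ± 11.8) and VGLL3 (26.0 ± 1.23), followed by VGLL1 without reads. No neighbors in that order overlapped, but the order depended on the length used: with the longest or the MANE Select transcript, VGLL4 (380 ± 17.0) lay above TEAD4 (311 ± 5.20). With erlotinib the first 3 places went to the same genes, at 1346 ± 48.7, 613 ± 16.3 and 420 ± 9.64. VGLL4 (259 ± 9.47) and TEAD2 (237 ± 20.2) followed and overlapped each other. TEAD3 (190 ± 11.9) and TEAD4 (168 ± 13.1) came next and also overlapped, before VGLL3 (21.4 ± 1.48) and VGLL1 (3.18 ± 2.26). With the longest or the MANE Select transcript, VGLL4 (494 ± 18.1) overlapped TEAD1 (478 ± 10.9), so the third place among the erlotinib libraries was not settled.

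The rest of the pathway gave the setting. The kinase cascade has 7 genes in this list, of which 3 fell, 1 rose and 3 did not pass the threshold (median log2 fold change -0.10), beside 35.4% of all tested genes lower and 35.3% higher. STK4, the MST1 kinase, fell from 2926 ± 64.8 to 1824 ± 28.2 (log2 fold change -0.68, limma adjusted p = 1.7e-08), and MOB1A, an activator of LATS kinases, from 4873 ± 351 to 3354 ± 150 (-0.54). The scaffold SAV1 was lower by a log2 fold change of -0.17 (limma adjusted p = 0.038), which came to 0.01 when scaled to the total. LATS2, a kinase of YAP and itself a YAP target, rose from 809 ± 22.5 to 996 ± 74.3 (0.30, limma adjusted p = 0.0052). STK3 (-0.07), LATS1 (0.02) and MOB1B (-0.10) did not pass the threshold, and their groups overlapped.

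Of 12 upstream regulators, 11 were tested. They split into 6 that fell, 1 that rose and 4 that did not pass (median -0.18), beside 35.4% of all tested genes lower and 35.3% higher. FRMD6, a FERM-domain protein, fell from 3925 to 1665 (-1.23), and NF2, the merlin scaffold that recruits LATS kinases, from 2390 to 1259 (-0.92). FAT4, an atypical cadherin, rose from 217 to 661 (1.59). Scaled to the total, 5 were lower and 2 higher, with a median of 0.00, beside 27.8% of all tested genes lower and 43.3% higher.

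Of 14 cytoplasmic binding partners of YAP and TAZ, 13 were tested, of which 7 were lower, 5 were higher and 1 was neither (median -0.59). The list holds the 14-3-3 proteins, which retain phosphorylated YAP, and the angiomotins, which bind it at junctions and actin. All 6 tested 14-3-3 genes were lower, by log2 fold changes between -2.51 and -0.59, and all 3 angiomotin genes were higher, between 0.37 and 1.84, beside 35.4% of all tested genes lower and 35.3% higher. Both families were picked out after their values were seen, so their counts are a description with no test. They kept these directions when scaled to the total. SFN fell from 8737 ± 765 to 1533 ± 63.5 (-2.51) and YWHAH from 7023 to 3596 (-0.97), while AMOT rose from 202 ± 12.3 to 730 ± 61.5 (1.84) and AMOTL1 from 892 to 1547 (0.79). YWHAE, the remaining 14-3-3 gene of the list, was listed at 0 in every library.

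Of 8 nuclear partners, 6 were tested, of which 2 fell, 1 rose and 3 did not pass the threshold (median -0.20), beside 35.4% of all tested genes lower and 35.3% higher. The chromatin remodeler SMARCA4 (-0.23) was lower and the transcription factor RUNX1 (0.21) was higher. Scaled to the total, 0 were lower and 2 higher, beside 27.8% and 43.3% of all tested genes. Among the 8 AP-1 subunits, which often bind beside TEAD factors, 2 were lower and 6 were higher (median 0.82), beside 35.4% and 35.3% of all tested genes. The same counts came from scaling to the total, beside 27.8% and 43.3%. FOSL1 fell from 15818 ± 1514 to 889 ± 20.8 (-4.15), and FOS from 72.3 to 29.6 (-1.23). ATF3 rose from 558 to 1176 (1.07) and FOSB from 34.1 to 60.7 (0.94).

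Genes known as YAP/TAZ and TEAD targets moved in both directions, as did the tested genes at large (35.4% lower and 35.3% higher). Of 22 targets, 21 were tested, of which 10 (47.6%) were lower, 9 (42.9%) were higher and 2 did not pass. Their median was 0.09. Scaled to the total, 8 were lower and 11 higher, beside 27.8% and 43.3% of all tested genes. F3, the tissue factor gene, fell from 21086 ± 1814 to 3249 ± 89.4 (log2 fold change -2.69), and NT5E, the CD73 ectonucleotidase, from 8968 ± 354 to 2685 ± 12.4 (-1.74). ANKRD1, a muscle ankyrin-repeat protein, rose from 88.8 ± 40.6 to 290 ± 27.6 (1.80), and CCDC80 from 569 ± 32.7 to 1206 ± 28.1 (1.08). LATS2, AMOTL2 and PTPN14 stand in this list and in another.

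**Figure D4:**
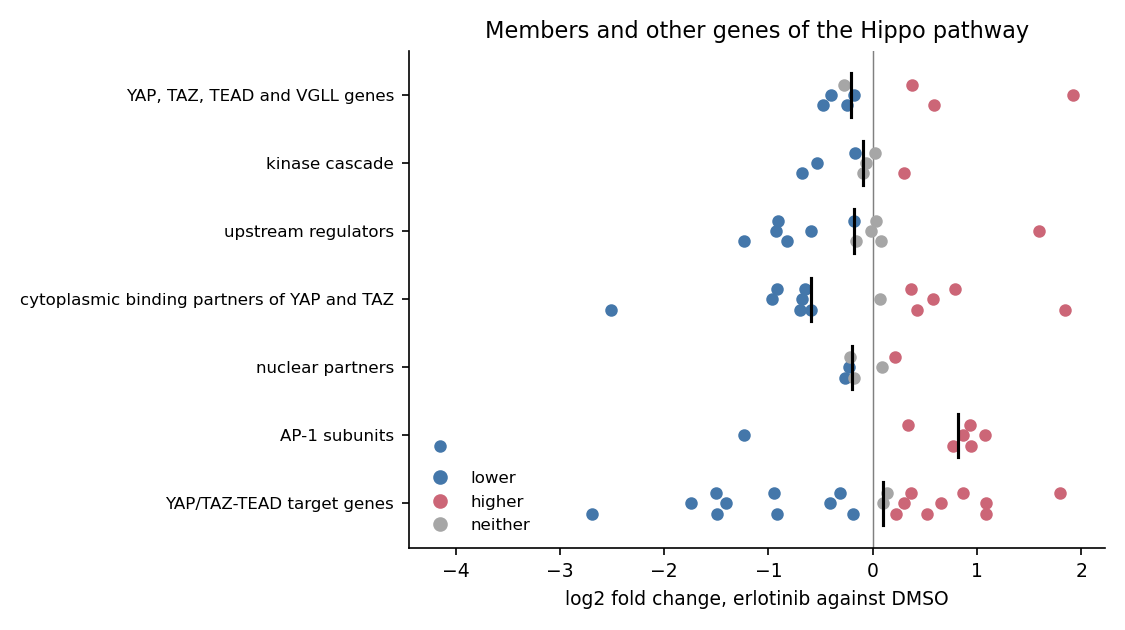
Log2 fold change, erlotinib against DMSO, of the tested YAP, TAZ, TEAD and VGLL genes and of each tested gene in the 6 pathway lists, with a point per gene (blue lower, red higher, grey neither in limma) and the median as a bar. The medians of the 6 lists run from -0.59 for the cytoplasmic partners to 0.82 for the AP-1 subunits, and each list holds genes on both sides of 0.

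The markers of the cell line were present. EPCAM, an epithelial adhesion protein, was at 9852 with DMSO and 9485 with erlotinib, and KRT7, the most abundant of the 6 epithelial markers, fell from 123686 to 79897. Of these 6, 4 keratins were lower and 2 were neither. The lung lineage factor NKX2-1 rose from 3002 to 8644 and the protease gene NAPSA from 986 to 3733, whereas the surfactant gene SFTPB was near 0 (8.23 and 10.5). EGFR fell from 79645 ± 2441 to 45538 ± 3759. Of the 6 fibroblast markers COL1A1 rose from 77.7 to 216. LUM went from 4.14 to 12.6 without overlap and below the level for testing, while PDGFRB, COL1A2, COL3A1 and DCN were at a mean of at most 2.18. Of the 3 endothelial markers VWF rose from 3.94 to 27.4, PECAM1 was at 15.7 and 10.4, and CDH5 at 3.78 and 10.1, with overlap for both. Their part in the changes of the 9 genes was not tested, and in bulk RNA fewer cells of a kind and less RNA per cell cannot be told apart.

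**Figure D5:**
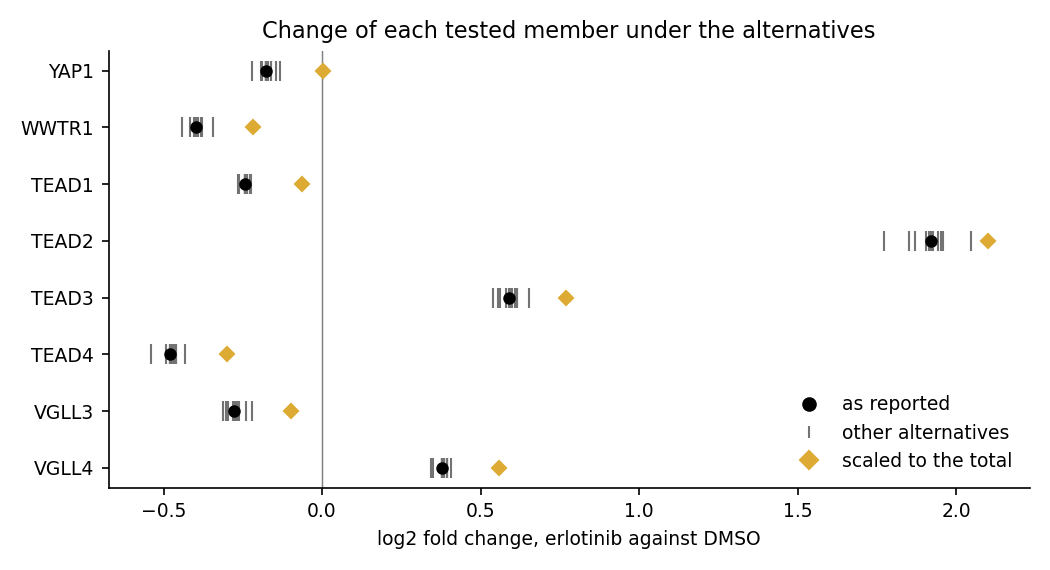
Log2 fold change of each tested member as reported (black) and under 16 alternatives (ticks, with scaling to the total as a diamond: limma, edgeR and DESeq2, other scalings, pseudocounts and filters, and each library left out). TEAD2 stays between 1.77 and 2.10 and VGLL4 between 0.34 and 0.56, and scaling to the total moves YAP1 to 0.00.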

How the data were processed

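Poly(A) RNA of HCC827 cells was sequenced in 6 libraries. Per the labels and the study's methods, the authors aligned read pairs with Bowtie2 2.3.4 on GRCh38, and featureCounts 1.6.3 gave the reads of each gene. DESeq2 1.18.1 is also named. The deposited values are signal: reads divided by 1 size factor per library (0.882 to 1.08). Dividing by the smallest step of each library gave whole reads for 100% of the values (within 0.001): 20858083, 24641819 and 21172884 reads on genes for DMSO and 21944007, 20760204 and 21678395 for erlotinib. Replicates differed by more than sampling noise, with chi-square values of 4.13 to 24.3 per degree of freedom. The aligner is not splice-aware, so short exons can count for less.

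Erlotinib was compared with DMSO by limma 3.58.1 with a mean-variance trend on log2(signal + 1), two-sided, over 14215 genes whose mean signal reached 10. Fold changes on that scale understate the change of low genes. Tested on simulated data for this comparison (14113 genes), limma recovered 80 of 99 genes changed by 1 log2 unit and 98 of 100 changed by 2, and 5.82% of its calls were false. In the simulation only 199 genes were changed, up and down alike, and the size factors were known. The real data had far more changed genes and a scaling that affects the calls, so the simulated share of false calls may not hold for them. Count tests on the recovered reads were alternatives: edgeR 4.0.16 with TMM factors called 4941 genes lower and 5085 higher, and DESeq2 1.42.0 called 4934 and 4949. Further alternatives were DESeq2-type size factors in edgeR, limma-voom, scaling to the total, pseudocounts of 0.1 and 10, other filters, a threshold of 0.01, and leaving out each library. Lengths came from GENCODE release 44, overlaps and promoters from RefSeq. Members were searched with minimap2 2.31-r1302 on 261 alternate contigs, and 0 had a copy there. No protein sequences were used here.

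The members and gene lists were chosen with earlier results of these data known. All members and kinase cascade genes are named, and from each other list the 2 genes with the largest fall and the 2 with the largest rise past the threshold, genes overlapping a member, and the 3 genes most like YAP1, WWTR1 and TEAD2. Other genes were named after their values were seen, and some single genes are not reported here. R 4.3.3, Python 3.11.15 and matplotlib 3.10.9 were used.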

Additional observations from a re-analysis of the deposited data

How the results depend on the processing

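WWTR1, TEAD2, TEAD3, TEAD4 and VGLL4 kept direction and call in 16 of 16 alternatives, and TEAD1 in 15. Scaled to the total, which moves the median gene from 0.02 to 0.19, 2 members rather than 4 were lower: TEAD1 lost its call and YAP1 came to 0.0035, just past 0. YAP1 also lost its call without erlotinib library 6 (-0.15, limma adjusted p = 0.106) and at a threshold of 0.01. VGLL3 passed with a pseudocount of 0.1 (limma adjusted p = 0.0478). With each library left out in turn, 3 to 4 members were lower and 3 were higher, the YAP1 to WWTR1 difference ran from 0.19 to 0.27, and TEAD2's share from 6.28% to 7.51% with DMSO and from 22.6% to 23.9% with erlotinib. With the longest transcript as length, TEAD1 held 52.3% with DMSO and 40.4% with erlotinib, TEAD3 11.9% and 16.3%, and TEAD4 28.8% and 18.9%. With the MANE Select transcript, chosen after seeing the data as were both lengths for the levels of the single genes, TEAD1 held 51.8% and 39.2%, TEAD3 11.8% and 15.9%, TEAD4 28.5% and 18.3%, and TEAD2 26.6% with erlotinib. No paired analysis was possible because the erlotinib columns are numbered 4 to 6, so that they cannot be matched to the sample titles, which number both groups 1 to 3. Depth limits VGLL1, at 15 reads in all.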

Other observations

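Among 11067 genes whose mean signal reached 100, the log2 signal most like that of YAP1 over the 6 libraries was that of HNRNPA1, an RNA-binding protein (Pearson r = 0.999), followed by RSPRY1 (0.997) and DPH5 (0.993). For WWTR1 these were WDYHV1 (0.999), the scaffold IQGAP1 (0.999) and METAP1 (0.998), and for TEAD2 they included the chromatin remodeler CHD2 (1.00) and ATF6 (0.999). An r of at least 0.99 was reached by 7 genes for YAP1, 101 for WWTR1 and 200 for TEAD2. With 6 libraries in 2 groups, any gene that changed with little spread within the groups reaches a high r, and the genes share each library's scaling, so these values are a description only.

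YWHAE, a 14-3-3 gene, was listed at 0 in all 6 libraries. Its transcript aligned over 100% of its length at 100% identity to an alternate contig of GRCh38, whereas 0 of the 9 members had such a copy.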
